A study of Mus musculus with 23 samples.

Results

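The comparison described is that of injured with uninjured muscle in control mice: 2 arrays of the gastrocnemius, a calf muscle, taken 3 days after an injection against 2 arrays of the same muscle taken on day 0 without injection. The 4 arrays were chosen by their titles, which name both groups as controls of the lamin A line, and they are 4 of the 23 arrays of a series that also holds a day 4 and mice lacking emerin (emerin KO) or lamin A/C (lamin A/C KO). The labels state neither the strain, age nor sex of the mice, nor the agent injected, nor whether each array of a group stands for its own animal. A p-value then reflects nothing more than the spread between arrays within groups. That spread was pooled over all 23 arrays of the series in 9 groups, knockouts included, and is not that of the 4 arrays alone. All genes were compared: 11164 were bright enough to be tested.

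Skeletal muscle rebuilds its fibers after an injury. Dying fibers are cleared by phagocytes that enter from the blood, while satellite cells, the stem cells under the basement membrane of each fiber, divide, differentiate under transcription factors such as MyoD and myogenin, and fuse into new fibers. The new fibers first use embryonic and fetal versions of many proteins and exchange them for the adult versions as they mature and are reached by nerve endings.

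Of the genes tested, 2244 (20.1%) rose and 1580 (14.2%) fell from day 0 to day 3, so that 34.3% passed in either direction. Each count of rises and falls in a list below stands against these shares. Passing means an adjusted p under 0.05 in limma, a linear model fitted to all genes, with Benjamini-Hochberg adjustment over all 11164, and every adjusted p below is of this kind. A signal is an array's probe set brightness after rescaling, a change is the day 3 minus the day 0 mean of log2(signal + 32), and ± is the standard error of the fit. The fitted rise in log2(signal + 32) was at least 1 for 1334 genes, at least 2 for 308, at least 3 for 71 and at least 4 for 13, and the fitted fall was at least 1 for 972 genes, at least 2 for 206, at least 3 for 52 and at least 4 for 9. These counts include genes whose size of change is known only as a bound, since 290 of the genes that rose were under a signal of 100 on both day 0 arrays and 117 of those that fell were under it on both day 3 arrays. The median difference between the 2 arrays of a day was 0.22 (log2, absolute) on day 0 and on day 3, against 0.46 between the means of the days. The 3'/5' signal ratio of Gapdh, a measure of RNA quality, was 0.829 and 0.949 on the day 0 arrays and 0.957 and 0.976 on the day 3 arrays. For a gene with a signal under 100 on both arrays of 1 day, the log2 change depends on the 32 that is added, and the change is given as at least the bright day's mean over 100. Where only 1 array of a day is under 100, the log2 change is given. It is not exact where that day's mean is under 100, as for Phkg1, Scara5, Slc47a1, Chrne and Ccr2, among others. A bulk sample cannot tell fewer cells of a type from less RNA per cell, which holds for each fall and rise below. The median of all genes was 0.08. With 2 arrays a day, 38.2% of the tested genes were higher on day 3 without overlap between the days, and 29.2% were lower. Each lack of overlap named below stands against these shares.

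**Figure D1:**
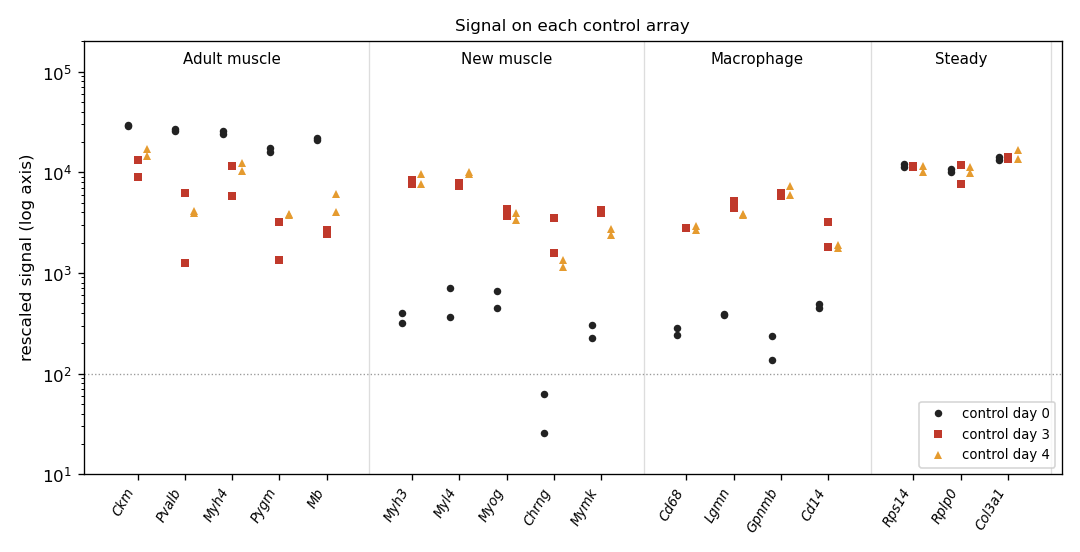
Rescaled signal (log axis) of genes of 4 kinds on the 6 control arrays, 1 point per array: circles for day 0, squares for day 3 and triangles for day 4; the dotted line marks the signal of 100. Adult muscle genes lie lower on day 3 than on day 0, new muscle and macrophage genes lie higher, and the last 3 genes overlap.

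The sarcomere is the contractile unit of the fiber. Myosin motors pull on actin filaments under the control of troponin and tropomyosin, and most of its proteins are encoded by families whose members serve adult, slow, embryonic or non-muscle cells. For 37 pairs of a muscle-rich gene and a relative, both members were tested. The muscle-rich member fell in 36 pairs (14.2% of all genes fell), with a median change of -2.09, and the relative rose in 25 (20.1% of all genes rose), with a median of 1.09. In 25 pairs the muscle-rich gene fell and its relative rose, in 4 both fell, in 7 the relative did not pass, and in 1 neither passed. The pairs were chosen with earlier results of these data known, and the counts are a description of them.

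Of the myosin heavy chains, the embryonic and perinatal forms rose and the adult forms fell. Myh3, the embryonic heavy chain, had signals of 318 and 399 on day 0 and 7550 and 8290 on day 3, and Myh4, the heavy chain of the fastest fibers, had 25793 and 24060 on day 0 and 5843 and 11564 on day 3. The groups overlapped for neither gene, and the change was 4.35 ± 0.32, adjusted p = 1.3e-09 for Myh3 and -1.60 ± 0.31, adjusted p = 2.9e-04 for Myh4. Myh8, the perinatal heavy chain, rose by 2.94 ± 0.22 while Myh1, another adult fast chain, had a change of -1.06 ± 0.17. Myh2, of the fast oxidative fibers, read 20117 and 18889 on day 0 and 636 and 1417 on day 3 (-4.31 ± 0.86, adjusted p = 3.8e-04). Myh7, the chain of slow fibers, had 8087 and 6916 on day 0 and 254 and 251 on day 3 (-4.72 ± 0.27, adjusted p = 4.4e-11). The slow light chains Myl2 and Myl3 had the deepest falls of the genes that passed without overlap, leaving out unnamed cDNAs and gene models. Myl3 read 15298 and 14673 on day 0 and 151 and 265 on day 3 (-6.01 ± 0.31, adjusted p = 1.7e-11), and Myl2 read 14403 and 15455 on day 0 and 270 and 204 on day 3 (-5.81 ± 0.43, adjusted p = 1.1e-09). Neither overlapped between the days. By contrast Myl4, the embryonic and atrial light chain, read 363 and 701 on day 0 and 7891 and 7315 on day 3 (3.83 ± 0.23, adjusted p = 5.1e-11), while the adult fast chain Myl1 fell by 1.10 ± 0.29. Calls that did not hold, each with its adjusted p, were those with quantile normalization for Myl1 (0.098).

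In the thin filament, Tnnt2, the troponin T of heart and embryonic muscle, read 134 and 231 on day 0 and 5903 and 5376 on day 3, and its fast partner Tnnt3 read 23222 and 27398 on day 0 and 7076 and 10351 on day 3. The days did not overlap for either gene. The changes were 4.76 ± 0.23 and -1.56 ± 0.21. For troponin C, which binds calcium, the fast Tnnc2 fell (-0.91 ± 0.17) and the slow Tnnc1 did not pass (-0.22 ± 0.23, adjusted p = 0.52). Among the actins, skeletal Acta1 read 26307 and 24457 on day 0 and 14513 and 17919 on day 3 and cardiac Actc1 read 22743 and 19542 on day 0 and 10896 and 13742 on day 3, and both fell (-0.65 ± 0.19 and -0.78 ± 0.22). Muscle tropomyosin Tpm1 fell (-1.56 ± 0.25) and the non-muscle Tpm4 rose (1.31 ± 0.17). At the Z-disc, where the filaments are anchored, the actinins Actn3 (-1.74 ± 0.24) and Actn2 (-1.72 ± 0.21) fell and the non-muscle Actn1 (1.98 ± 0.25) and Actn4 (1.43 ± 0.22) rose. Ldb3 (-3.59 ± 0.28), Tcap (-3.39 ± 0.30) and Myoz1 (-3.19 ± 0.25), other Z-disc proteins, fell as well. Of the intermediate filaments, Des fell (-0.56 ± 0.18) and Vim, of mesenchymal cells, rose (1.19 ± 0.16). The adjusted p, given in brackets, missed the threshold with the mean of all probe sets for Tpm1 (0.26), with quantile normalization for Acta1 (0.61), Actc1 (0.22) and Des (0.065), without control day 0 replicate 1 for Acta1 (0.063), Actc1 (0.079) and Des (0.10), without control day 0 replicate 2 for Des (0.055), without control day 3 replicate 1 for Acta1 (0.11), Actc1 (0.10) and Des (0.13).

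**Figure D2:**
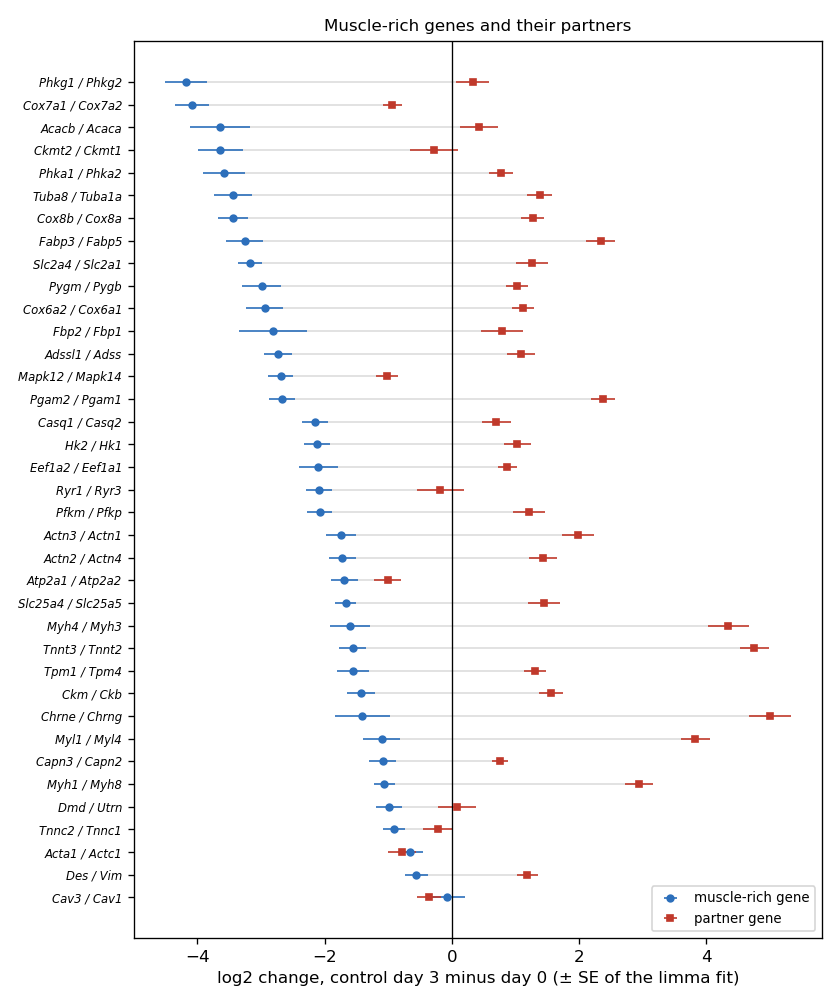
Log2 change from control day 0 to control day 3 with its standard error for 37 pairs, circles for the muscle-rich gene and squares for its relative, ordered by the change of the muscle-rich gene. The circle nearest 0 is that of Cav3 at -0.07, and 25 squares that passed lie to the right of 0.

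The enzymes that fuel contraction came in the same kind of pairs. Creatine kinase passes phosphate to ADP: Ckm, the muscle form, read 29560 and 29022 on day 0 and 8983 and 13101 on day 3, and Ckb, the brain form, read 1038 and 1209 on day 0 and 3230 and 3495 on day 3. The day 3 arrays were lower for Ckm and higher for Ckb, with no overlap (-1.43 ± 0.22, adjusted p = 1.8e-05, and 1.56 ± 0.19, adjusted p = 1.2e-06). Glycogen is broken down by phosphorylase, and its muscle form Pygm read 17268 and 15999 on day 0 and 1329 and 3196 on day 3 (-2.99 ± 0.31) against a rise in the brain form Pygb (1.03 ± 0.17). The subunits of its kinase, Phka1 (-3.58 ± 0.33) and Phkg1 (-4.18 ± 0.33), fell, while Phka2 rose (0.77 ± 0.19) and Phkg2 did not pass (0.33 ± 0.26, adjusted p = 0.38). Along glycolysis, Hk2 (-2.12 ± 0.21), Pfkm (-2.08 ± 0.19) and Pgam2 (-2.67 ± 0.20) fell, and Hk1 (1.03 ± 0.21), Pfkp (1.21 ± 0.25) and Pgam1 (2.38 ± 0.19) rose. Eno3, the muscle enolase, fell by 1.63 ± 0.18, and its relative Eno1 had no probe set in use. The insulin-responsive glucose transporter Slc2a4 read 4427 and 4086 on day 0 and 379 and 517 on day 3 (-3.17 ± 0.19), and the general transporter Slc2a1 read 235 and 285 on day 0 and 533 and 834 on day 3 (1.26 ± 0.25). The days did not overlap for either transporter. Adssl1 and Adss, which make AMP in muscle and elsewhere, had -2.73 ± 0.22 and 1.09 ± 0.22. Fbp2, the muscle bisphosphatase, fell (-2.81 ± 0.54), and its liver form Fbp1 did not pass (0.79 ± 0.33, adjusted p = 0.068). Under other settings the adjusted p in brackets missed the threshold: with the mean of all probe sets for Phka2 (0.21), without control day 0 replicate 1 for Phka2 (0.071). Fbp1 passed with the replicate block (0.79, adjusted p = 0.035) and without control day 0 replicate 2 (1.10, adjusted p = 0.039).

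Subunits of cytochrome c oxidase, the last complex of the respiratory chain, also exist in heart and skeletal muscle forms. Cox6a2 read 17563 and 16815 on day 0 and 1622 and 3015 on day 3 and its general form Cox6a1 3969 and 4223 on day 0 and 9114 and 8760 on day 3, with changes of -2.94 ± 0.29 and 1.12 ± 0.17. Cox8b and Cox8a had -3.44 ± 0.23 and 1.27 ± 0.18. Cox7a1 fell by 4.09 ± 0.27, and here the general form Cox7a2 fell too (-0.94 ± 0.15). The ADP/ATP carriers Slc25a4 and Slc25a5 had -1.67 ± 0.17 and 1.45 ± 0.25, and the fatty acid binding proteins Fabp3 and Fabp5 had -3.26 ± 0.29 and 2.34 ± 0.23. Acacb, which makes the malonyl-CoA that holds back fatty acid entry into mitochondria, read 1831 and 1543 on day 0 and 38.3 and 235 on day 3 (-3.64 ± 0.47). Its day 3 arrays lay far apart, both under day 0. Its relative Acaca did not pass (0.43 ± 0.30, adjusted p = 0.30), and neither did Ckmt1 (-0.28 ± 0.37, adjusted p = 0.63) beside the fall of the muscle mitochondrial kinase Ckmt2 (-3.64 ± 0.35).

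Other pairs lay outside metabolism. Translation factor Eef1a2 fell (-2.10 ± 0.31) and Eef1a1 rose (0.87 ± 0.15). Tubulin Tuba8 fell (-3.44 ± 0.30) and Tuba1a rose (1.38 ± 0.20). Protease Capn3 fell (-1.09 ± 0.21) and Capn2 rose (0.76 ± 0.13). The p38 kinases Mapk12 (-2.69 ± 0.20) and Mapk14 (-1.02 ± 0.18) both fell, as did the calcium pumps Atp2a1 (-1.69 ± 0.21) and Atp2a2 (-1.01 ± 0.21). Caveolins Cav3 and Cav1 formed the pair in which neither passed (-0.07 ± 0.27, adjusted p = 0.88, and -0.36 ± 0.19, adjusted p = 0.15). Rpl3l, a ribosomal protein of striated muscle, read 7047 and 5801 on day 0 and 101 and 349 on day 3 (-4.83 ± 0.34, adjusted p = 6.7e-10). It ranked 3 by fall among the genes that passed without overlap, leaving out unnamed cDNAs and gene models. Some calls were lost, with the adjusted p in brackets: with the mean of all probe sets for Atp2a2 (0.39). Cav1 passed without the emerin KO arrays (-0.36, adjusted p = 0.043).

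The receptor for acetylcholine at the nerve contact has a fetal form with a gamma subunit and an adult form with an epsilon subunit. Chrng, the gamma subunit, read 26.0 and 62.5 on day 0 and 1562 and 3482 on day 3, which is at least 25.2-fold higher on day 3 (adjusted p = 2.3e-10). Chrne, the epsilon subunit, read 227 and 204 on day 0 and 29.8 and 108 on day 3 (-1.41 ± 0.43, adjusted p = 0.014). Chrna1, the alpha subunit of both forms, read 845 and 737 on day 0 and 6219 and 7500 on day 3 (3.06 ± 0.16, adjusted p = 1.7e-11), and Ncam1, a membrane adhesion protein, rose too (3.16 ± 0.32). Ache, the esterase that ends the signal, fell (-1.18 ± 0.36). Of 16 tested genes of the receptor and the junction, 4 rose, 2 fell and 10 did not pass, with a median change of 0.06. These shares are near the 20.1% and 14.2% over all genes. Erbb3, a neuregulin receptor, was the other that rose (0.86 ± 0.18). Chrnb1, the beta subunit, did not pass (-0.39 ± 0.24, adjusted p = 0.23). Calls that did not hold, each with its adjusted p, were those with the mean of all probe sets for Erbb3 (0.30), without control day 0 replicate 1 for Ache (0.069) and Chrne (0.079), without control day 0 replicate 2 for Ache (0.053), without control day 3 replicate 1 for Ache (0.097) and Chrne (0.26).

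The promoters of the 2 subunits that rose are shown because myogenic factors bind the motif CAGCTG, an E-box, and both windows hold it. The windows run from 250 bases before to 50 after the gene's start in RefSeq, build GRCm38.p6, and are given 5′ to 3′ on the gene's strand with the motif in capitals. The Chrng window is chr1:87205561-87205860 on the + strand, with matches that begin 155 and 132 bases before the start. The Chrna1 window is chr2:73580289-73580588 on the - strand, with matches that begin 92 and 44 bases before the start.
Chrng: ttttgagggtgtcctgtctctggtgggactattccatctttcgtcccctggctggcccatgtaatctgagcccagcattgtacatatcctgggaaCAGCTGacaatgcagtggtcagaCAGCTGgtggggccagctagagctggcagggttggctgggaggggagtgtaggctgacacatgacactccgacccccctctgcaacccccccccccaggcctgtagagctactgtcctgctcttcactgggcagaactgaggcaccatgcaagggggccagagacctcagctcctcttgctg
Chrna1: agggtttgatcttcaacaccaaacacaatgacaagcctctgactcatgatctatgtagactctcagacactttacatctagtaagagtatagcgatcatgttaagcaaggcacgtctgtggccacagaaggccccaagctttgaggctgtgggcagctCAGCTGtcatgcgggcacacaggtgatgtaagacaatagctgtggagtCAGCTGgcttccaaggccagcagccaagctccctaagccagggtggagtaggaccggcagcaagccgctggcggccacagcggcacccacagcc
The motif was found in 5 of 10 genes of the junction list with a window (Chrng and Chrna1, which rose, Chrne, which fell, and Musk and Etv5, which did not pass), in 18.3% of all 27025 genes with a window, in 18.5% of the tested genes, in 17.6% of the genes that rose and in 19% of those that fell. In the satellite cell list it was found in 3 of 24 genes, and the windows of Myog, Myh3 and Myl4 do not hold it. Here and below, windows were chosen for print after their letters had been read, as those of the members with the largest change that hold the motif, and a match is a description of the letters only.

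Among the genes of satellite cells, Notch signalling and myoblast fusion, 12 of 36 rose, 5 fell and 19 did not pass, with a median of 0.30. The share that fell is near the 14.2% of all genes. Mymk encodes myomaker, the membrane protein that lets myoblasts fuse, and read 228 and 302 on day 0 and 3955 and 4254 on day 3 (3.81 ± 0.24, adjusted p = 1.4e-10). Myog, encoding myogenin, read 665 and 448 on day 0 and 4263 and 3639 on day 3 (2.78 ± 0.20, adjusted p = 9.5e-10), and Myod1, encoding MyoD, read 708 and 826 on day 0 and 2339 and 1947 on day 3 (1.44 ± 0.17, adjusted p = 9.4e-07). All 3 were higher on both day 3 arrays. The cell adhesion genes Cdh15 (1.31 ± 0.17), Cdh2 (2.22 ± 0.24) and Vcam1 (1.89 ± 0.35) rose, as did Myof, a membrane repair protein of fusing cells (2.04 ± 0.30). Pax7 and Myf5, which mark satellite cells at rest and on activation, did not pass (0.30 ± 0.29, adjusted p = 0.49, and at least 1.26-fold, adjusted p = 0.42). The 5 that fell, named for their number after their values were seen, were Myf6, the myogenic factor of mature fibers (-1.27 ± 0.25), Mef2c (-1.67 ± 0.18), Mef2d (-0.57 ± 0.15), Chodl (-1.83 ± 0.27) and Capn3. Outside the list, the embryonic transcription factor Sox11 read 54.6 and 52.3 on day 0 and 1049 and 938 on day 3 (at least 9.94-fold higher, adjusted p = 1.7e-11), and Runx1, a factor that rises in denervated muscle, read 61.0 and 79.7 on day 0 and 1241 and 2281 on day 3 (at least 17.6-fold higher, adjusted p = 9.1e-09). The adjusted p, given in brackets, missed the threshold with the brightest probe set by mean log2 for Mef2c (0.11), with the mean of all probe sets for Mef2d (0.092).

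Calcium release and uptake, which couple the nerve signal to contraction, held 15 falls and 2 rises among 23 genes, with a median of -1.65. Pvalb, the calcium buffer of fast fibers, read 27107 and 25393 on day 0 and 1266 and 6144 on day 3 (-3.21 ± 0.52, adjusted p = 4.0e-05). Its day 3 arrays lay far apart, both under day 0. Triadin (Trdn, -3.14 ± 0.36), the release channel Ryr1 (-2.09 ± 0.20), its voltage sensor Cacna1s (-2.15 ± 0.19) and the store protein Casq1 (-2.15 ± 0.20) fell, with Tmem38a (-2.76 ± 0.65) and Asph (-2.85 ± 0.24). The 2 that rose were Casq2, the store protein of heart and slow muscle (0.70 ± 0.23), and Sln, sarcolipin, which holds back the calcium pump. Sln read 711 and 667 on day 0 and 3397 and 2839 on day 3 (2.12 ± 0.24, adjusted p = 3.2e-07) and 5910 and 5971 on the day 4 arrays. Of 14 channels and pumps of the fiber membrane, 11 fell, 0 rose and 3 did not pass, with a median of -1.72. Fxyd1, which tunes the sodium pump, read 10657 and 9501 on day 0 and 593 and 1420 on day 3 (-3.41 ± 0.31), and the water channel Aqp4 (-3.19 ± 0.31), the potassium channel Kcnc4 (at least 6.68-fold), the pump subunit Atp1b2 (-3.25 ± 0.36), and the chloride channel Clcn1 (-2.31 ± 0.40) fell too. The proteins that tie the fiber to its matrix were mixed: 8 of 17 fell, 2 rose and 7 did not pass (median -0.56). Sgca (-1.69 ± 0.20), Sspn (-1.41 ± 0.18) and Dmd, encoding dystrophin (-0.99 ± 0.21), fell, the laminin receptor chain Itga7 rose (1.34 ± 0.18), and Utrn, the relative of dystrophin, did not pass (0.08 ± 0.30, adjusted p = 0.89). Under other settings the adjusted p in brackets missed the threshold: with median scaling for Casq2 (0.11), without control day 0 replicate 1 for Casq2 (0.13), without control day 3 replicate 2 for Casq2 (0.18).

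Most genes of mitochondrial fuel use fell. Of 24 genes of fatty acid oxidation, 23 fell and 1 did not pass, with a median of -1.31, and of 22 of the citrate cycle and pyruvate oxidation, 21 fell and 1 did not pass, with a median of -1.52. Pdk2, a kinase that turns off pyruvate dehydrogenase, read 3844 and 4243 on day 0 and 552 and 460 on day 3 (-2.92 ± 0.19, adjusted p = 2.3e-10). Idh3a, a subunit of the isocitrate dehydrogenase of the cycle, read 9529 and 8924 on day 0 and 2250 and 3223 on day 3 (-1.76 ± 0.27, adjusted p = 1.6e-05). Both genes were lower on each day 3 array than on either day 0 array. Mdh1 (-2.25 ± 0.21), Suclg1 (-1.99 ± 0.21), Ogdh (-1.93 ± 0.27) and Dlat (-1.85 ± 0.22) fell too, and Suclg2 was the member that did not pass (-0.94 ± 0.37, adjusted p = 0.055). Pdk4, another such kinase, read 6889 and 2541 on day 0 and 518 and 898 on day 3 (-2.56 ± 0.36), with a wide gap between its day 0 arrays, and the oxidation enzymes Etfdh (-1.86 ± 0.28), Eci1 (-1.82 ± 0.18), Hadh (-1.71 ± 0.19) and the uncoupling protein Ucp3 (-1.67 ± 0.30) fell. Of 72 genes of the mitochondrial ribosome and of protein import, 26 fell, 0 rose and 46 did not pass, with a median of -0.40. Mrps28 (-1.50 ± 0.16) and Timm23 (-1.37 ± 0.19) had the largest falls there. Suclg2 passed with quantile normalization (-1.04, adjusted p = 0.026), with median scaling (-1.05, adjusted p = 0.029), with pseudocount 100 (-0.78, adjusted p = 0.045), with the replicate block (-0.94, adjusted p = 0.037) and without control day 3 replicate 1 (-1.58, adjusted p = 0.0042).

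The Pdk2 promoter is shown because Pdk2 had the largest fall among the citrate cycle genes whose window holds CCAAT, the box bound by the factor NF-Y. The box occurs 3 times in the Pdk2 window, each on the opposite strand. The window is chr11:95041322-95041621 on the - strand, and the matches begin 105, 73 and 42 bases before the start.
Pdk2: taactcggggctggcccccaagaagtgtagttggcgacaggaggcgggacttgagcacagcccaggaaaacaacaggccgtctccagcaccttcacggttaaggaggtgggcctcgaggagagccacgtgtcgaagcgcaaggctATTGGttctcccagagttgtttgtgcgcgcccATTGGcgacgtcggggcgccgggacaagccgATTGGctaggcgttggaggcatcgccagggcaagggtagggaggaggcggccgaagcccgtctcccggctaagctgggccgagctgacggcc
CCAAT was found in 12 of 20 genes of the citrate cycle list with a window (11 that fell and 1 that did not pass), which is 60%, against 41.1% of all genes with a window, 42.2% of the tested genes and 43.5% of those that fell.

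Muscle ubiquitin ligases and autophagy genes held 13 falls and 0 rises among 21, with a median of -0.89. Of the 6 with the largest falls, 5 were Asb genes, adaptors of ubiquitin ligases found in muscle: Asb10 (at least 12.9-fold), Asb14 (at least 6.03-fold), Asb12 (-3.08 ± 0.26), Asb11 (-2.71 ± 0.26) and Asb5 (-1.63 ± 0.29). The sixth was Trim54, a ligase at the sarcomere (-2.62 ± 0.21). The autophagy proteins Map1lc3b (-0.52 ± 0.21, adjusted p = 0.068) and Gabarapl1 (-0.20 ± 0.21, adjusted p = 0.53) did not pass. Of the proteasome itself, 6 of 41 rose, 6 fell and 29 did not pass (median 0.02). The share that fell is near the 14.2% of all genes, and the share that rose is under the 20.1% of all genes. The rises there included Psmb8 (1.57 ± 0.22) and Psmb9 (0.99 ± 0.23), subunits of the proteasome of immune cells, and the falls included Psme4 (-1.19 ± 0.18) and Psmd6 (-1.04 ± 0.22). Map1lc3b passed with the replicate block (-0.52, adjusted p = 0.045) and without the emerin KO arrays (-0.52, adjusted p = 0.028).

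**Figure D3:**
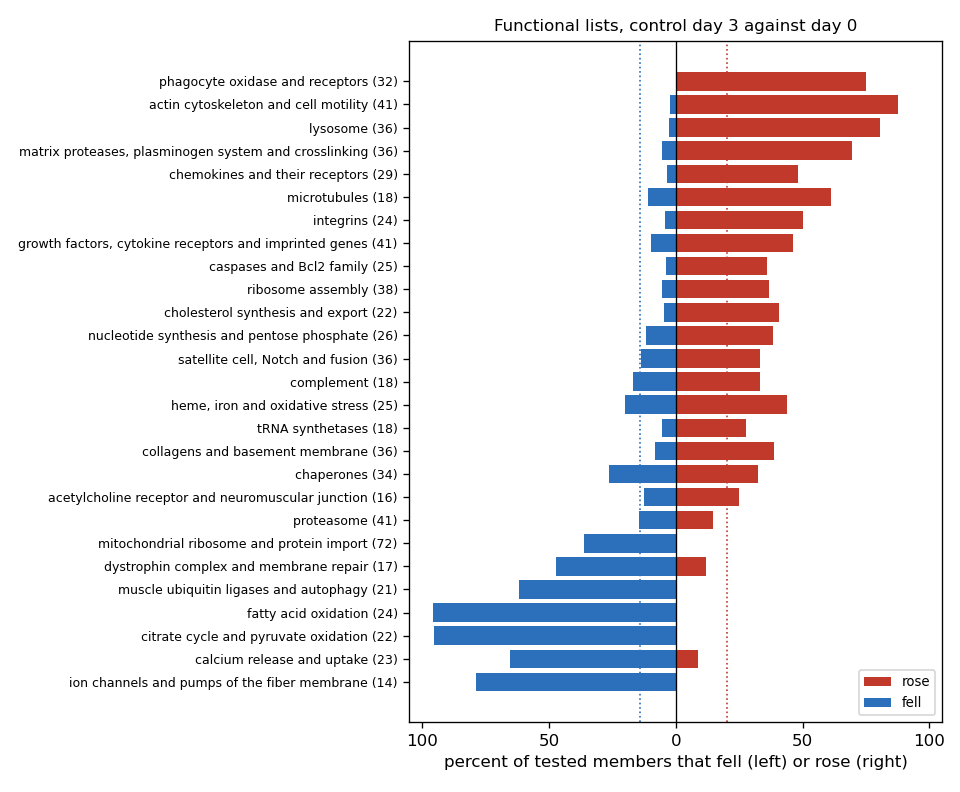
Percent of tested members that fell (left, blue) or rose (right, red) in 27 gene lists, ordered by median change, with the number tested in brackets; dotted lines mark the 14.2% of all genes that fell and the 20.1% that rose. Lists of fiber function lie at the bottom with falls, and those of phagocytes, lysosome and actin at the top with rises.

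Macrophages clear dying fibers and then release factors that act on myoblasts. All 12 tested macrophage markers rose, with a median of 2.86, or 2.69 with the gene under the minimum at its bound. Mpeg1, a pore protein of their lysosomes, read 94.8 and 239 on day 0 and 3914 and 3663 on day 3 (4.36 ± 0.43, adjusted p = 6.9e-08), and Cd68 read 242 and 283 on day 0 and 2793 and 2777 on day 3 (3.26 ± 0.20, adjusted p = 9.2e-11). The surface marker Adgre1 read 540 and 722 on day 0 and 1931 and 2133 on day 3 (1.65 ± 0.23, adjusted p = 7.3e-06), and the growth factor receptor Csf1r read 1790 and 2230 on day 0 and 6238 and 6875 on day 3 (1.70 ± 0.16, adjusted p = 2.5e-08). All 12 macrophage markers were higher on day 3 without overlap between the days, against 38.2% of all genes. Their summed signal was 6421 and 7942 on day 0, 47393 and 45200 on day 3 and 42326 and 44743 on day 4. Gpnmb, a glycoprotein of macrophages, read 138 and 234 on day 0 and 6268 and 5836 on day 3 (4.84 ± 0.34, adjusted p = 4.7e-10), and Lgals3, galectin-3, read 225 and 509 on day 0 and 8813 and 8767 on day 3 (4.57 ± 0.26, adjusted p = 3.2e-11). Arg1, arginase, read 86.3 and 84.6 on day 0 and 2196 and 2579 on day 3 (at least 23.9-fold higher, adjusted p = 6.9e-08). Other leading rises were P2ry6 (at least 10.1-fold), Lst1 (at least 8.75-fold), Ms4a6d (at least 13.1-fold), Arrb2 (at least 11-fold), Serpinb1a (at least 6.52-fold) and Fads3, a fatty acid desaturase (at least 7.90-fold).

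Of 32 genes of the phagocyte oxidase and of phagocyte receptors, 24 rose, 0 fell and 8 did not pass, with a median of 1.67 (1.58 with bounds). Fcer1g, the shared signalling chain of antibody receptors, read 67.4 and 358 on day 0 and 3662 and 4138 on day 3 (4.32 ± 0.41, adjusted p = 3.8e-08). Cyba, a membrane subunit of the oxidase, read 227 and 237 on day 0 and 3483 and 3388 on day 3 (3.72 ± 0.26, adjusted p = 4.4e-10), and Tyrobp, the adaptor that Trem2 signals through, read 333 and 450 on day 0 and 3977 and 3461 on day 3 (3.16 ± 0.21, adjusted p = 2.2e-10). The 3 genes were higher on both day 3 arrays, and Fcer1g had the widest gap on day 0. Clec4d (3.06 ± 0.35), Clec4n (2.70 ± 0.23), Trem2 (at least 2.85-fold) and Cd14 (2.30 ± 0.27), receptors for microbial or cell debris ligands, also rose.

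The windows of Clec4d and Trem2 hold GAGGAAG, the core bound by PU.1, the factor of myeloid cells, on the strand opposite to the gene. They are chr6:123261857-123262156 on the + strand, with a match that begins 241 bases before the start, and chr17:48346151-48346450 on the + strand, with a match that begins 41 bases before it.
Clec4d: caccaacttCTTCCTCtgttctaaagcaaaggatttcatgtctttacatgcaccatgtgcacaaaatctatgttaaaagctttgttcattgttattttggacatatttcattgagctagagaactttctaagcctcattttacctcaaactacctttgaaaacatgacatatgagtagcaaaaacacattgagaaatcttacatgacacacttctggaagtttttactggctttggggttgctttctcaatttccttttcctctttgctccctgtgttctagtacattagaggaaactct
Trem2: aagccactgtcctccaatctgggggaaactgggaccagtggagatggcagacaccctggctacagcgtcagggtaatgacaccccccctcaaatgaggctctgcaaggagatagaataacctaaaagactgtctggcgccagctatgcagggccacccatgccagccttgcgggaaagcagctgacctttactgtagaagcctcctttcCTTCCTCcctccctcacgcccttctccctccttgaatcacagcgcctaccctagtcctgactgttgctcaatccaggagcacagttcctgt
The motif was found in 11 of 23 genes of the list with a window (8 that rose and 3 that did not pass), which is 47.8%, against 15.4% of all genes with a window, 16.3% of the tested genes, 19% of those that rose and 13.1% of those that fell. The windows of Fcer1g and Cyba, with the largest rises of the list, do not hold it.

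Lysosomes digest what phagocytes take up. Of 36 lysosomal genes 29 rose, 1 fell and 6 did not pass, with a median of 1.26. Lgmn, the protease legumain, read 384 and 394 on day 0 and 5154 and 4448 on day 3 (3.52 ± 0.20, adjusted p = 5.1e-11), and the cathepsin Ctss read 630 and 1203 on day 0 and 7793 and 7572 on day 3 (3.09 ± 0.24, adjusted p = 1.8e-09). Both were several-fold brighter on each day 3 array than on either day 0 array. Lipa (2.26 ± 0.23), Laptm5 (2.15 ± 0.26) and Gusb (2.14 ± 0.30) followed. The 1 that fell was Tfeb, a transcription factor that turns on lysosomal genes, with 763 and 1111 on day 0 and 315 and 257 on day 3 (-1.59 ± 0.25, adjusted p = 3.3e-05). Members of the list that did not pass included Lamp1 (0.19 ± 0.17, adjusted p = 0.44) and Lamp2 (-0.12 ± 0.43, adjusted p = 0.88). Lamp1 passed with quantile normalization (0.44, adjusted p = 0.0097).

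TFEB and its relatives bind CACGTG, the core of the element named CLEAR. The windows of Lgmn (chr12:102439043-102439342, - strand, match beginning 49 bases before the start) and Ctsa (chr2:164833523-164833822, + strand, matches beginning 12 bases before the start and at base 6 after it) hold it, and Ctsa, cathepsin A, rose by 1.68 ± 0.15.
Lgmn: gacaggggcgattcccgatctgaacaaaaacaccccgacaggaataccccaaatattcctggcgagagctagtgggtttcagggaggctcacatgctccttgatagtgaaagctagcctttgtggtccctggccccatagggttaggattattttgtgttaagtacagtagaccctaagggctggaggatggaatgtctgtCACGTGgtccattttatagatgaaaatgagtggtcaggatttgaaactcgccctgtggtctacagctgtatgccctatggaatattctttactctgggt
Ctsa: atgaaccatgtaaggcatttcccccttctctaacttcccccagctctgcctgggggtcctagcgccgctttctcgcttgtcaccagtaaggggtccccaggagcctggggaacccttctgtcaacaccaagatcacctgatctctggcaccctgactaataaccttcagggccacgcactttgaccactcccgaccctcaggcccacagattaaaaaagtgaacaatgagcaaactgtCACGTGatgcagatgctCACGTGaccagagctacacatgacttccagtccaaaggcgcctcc
It was found in 12 of 30 lysosomal genes with a window (9 that rose and 3 that did not pass), which is 40%, against 8.09% of all genes with a window, 11.2% of the tested genes, 12.4% of those that rose and 9.84% of those that fell. In all, 9 motifs were searched on both strands over 12 sets of genes after the changes were known, and none of the 9 lies inside another. The other 5 were TGAGTCA of AP-1 (5.51% of the tested genes, 5.13% of those that rose, 5.58% of those that fell), AAGGTCA of the estrogen-related receptors (4.21%, 3.04% and 4.49%), TATAAA (11.3%, 11% and 10.4%), CACCC of KLF factors (67.1%, 68.2% and 67.9%) and a palindrome of NRF1 (1.95%, 1.88% and 2.40%). Over all genes with a window, tested or not, these 5 shares were 5.95%, 5.38%, 15.7%, 59.8% and 1.07%. The receptor motif was in 2 of 20 citrate cycle genes and in 1 of 20 of fatty acid oxidation.

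The complement genes were mixed: 6 of 18 rose, 3 fell and 9 did not pass (median 0.25). The share that fell is near the 14.2% of all genes. The rises were in C1qa (2.98 ± 0.16), C1qb (2.93 ± 0.17) and C1qc (3.19 ± 0.27), the chains of the recognition molecule C1q, in properdin (Cfp, at least 8.73-fold) and in the receptors C3ar1 (3.45 ± 0.21) and C5ar1 (1.82 ± 0.30). The falls were in Cd55 (-1.21 ± 0.29), Cd59a (-0.79 ± 0.16) and Clu (-0.76 ± 0.21), which restrain complement. Of 29 chemokines and receptors, 14 rose, 1 fell and 14 did not pass, with a median of 1.0 (0.93 with bounds). Ccl2, which draws monocytes, read 93.4 and 27.0 on day 0 and 1336 and 581 on day 3 (at least 9.58-fold higher, adjusted p = 3.4e-06), and its receptor Ccr2 read 14.5 and 120 on day 0 and 347 and 527 on day 3 (2.45 ± 0.39, adjusted p = 3.2e-05). Cx3cr1, a receptor of resident and patrolling monocytes, rose as well (at least 8.12-fold), with Ccl9 (2.64 ± 0.28), Ccl6 (2.56 ± 0.33) and Cxcr4 (2.41 ± 0.26). The fall was in Ccl11, eotaxin (at least 3.97-fold). Some calls were lost, with the adjusted p in brackets: without control day 0 replicate 1 for Clu (0.059).

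Genes that build and steer the actin cytoskeleton had the highest share of rises among the 27 lists: 36 of 41 rose, with 1 fall, 4 not passed and a median of 1.49. Cotl1, which binds actin filaments, read 94.6 and 169 on day 0 and 2962 and 1787 on day 3 (3.87 ± 0.26, adjusted p = 2.3e-10), and the blood cell bundling protein Lcp1 read 227 and 175 on day 0 and 2289 and 1999 on day 3 (3.23 ± 0.32, adjusted p = 7.0e-08). Coro1a of blood cells (3.23 ± 0.46), S100a4 (3.18 ± 0.25), Capg (2.57 ± 0.26) and the thymosin Tmsb10 (2.90 ± 0.20) rose too. The fall was in Rdx, radixin (-0.89 ± 0.31), and Actb, the actin of non-muscle cells, did not pass (-0.31 ± 0.25, adjusted p = 0.38). Of 18 genes of microtubules, 11 rose, 2 fell and 5 did not pass (median 0.91, or 0.73 with bounds). Tubb6 read 389 and 406 on day 0 and 5106 and 5390 on day 3 (3.62 ± 0.21, adjusted p = 5.1e-11), and Tubb2b (3.27 ± 0.28) and Tubb2a (2.45 ± 0.21) rose, while Tuba8 and Tuba4a (-1.32 ± 0.14) fell. Of 24 integrins and their partners, 12 rose, 1 fell and 11 did not pass (median 0.61), led by the leukocyte chains Itgb2 (2.67 ± 0.30) and Itgax (1.98 ± 0.39) and the fibronectin receptor Itga5 (1.93 ± 0.26). Calls that did not hold, each with its adjusted p, were those with quantile normalization for Rdx (0.051), without control day 0 replicate 1 for Rdx (0.21), without control day 3 replicate 1 for Rdx (0.065), without control day 3 replicate 2 for Rdx (0.15). Actb passed with the mean of all probe sets (-0.96, adjusted p = 0.022).

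The matrix around the fibers is cut and rebuilt during repair. Of 36 proteases, inhibitors and crosslinking enzymes, 25 rose, 2 fell and 9 did not pass, with a median of 1.02 (0.96 with bounds). Plod2, which prepares collagen for crosslinking, read 229 and 251 on day 0 and 2317 and 3193 on day 3 (3.34 ± 0.21, adjusted p = 1.3e-10), and the protease inhibitor Timp1 read 596 and 651 on day 0 and 4908 and 4854 on day 3 (2.91 ± 0.24, adjusted p = 6.3e-09). Neither overlapped between the days. Adam12, a protease of fusing myoblasts (2.83 ± 0.26), Adam8 (2.73 ± 0.25), Mmp13 (at least 6.49-fold) and Mmp12 (at least 3.59-fold) rose, and the inhibitors Timp3 (-1.56 ± 0.35) and Timp4 (-1.15 ± 0.33) fell. Of 36 collagens and other matrix proteins, 14 rose, 3 fell and 19 did not pass (median 0.19). Tnc, tenascin C, read 920 and 1254 on day 0 and 6158 and 7324 on day 3 (2.61 ± 0.25, adjusted p = 5.6e-08), and Postn, periostin, read 2595 and 2913 on day 0 and 12237 and 13642 on day 3 (2.22 ± 0.25, adjusted p = 3.4e-07). Col5a1 (2.06 ± 0.19), Bgn (2.04 ± 0.22) and Col8a1 (1.91 ± 0.43) rose too, and Fmod fell (-1.56 ± 0.42). Of the fibrillar collagens, Col1a1 (-0.44 ± 0.21, adjusted p = 0.13) and Col1a2 (-0.40 ± 0.25, adjusted p = 0.26) did not pass, and Col3a1 read 14205 and 13239 on day 0 and 14004 and 13433 on day 3. The adjusted p, given in brackets, missed the threshold without control day 0 replicate 1 for Timp4 (0.31), without control day 3 replicate 1 for Fmod (0.085) and Timp4 (0.068).

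Growth factors, cytokine receptors and imprinted genes had 19 rises, 4 falls and 18 not passed among 41 (median 0.48, or 0.44 with bounds). Tgfb1 read 257 and 310 on day 0 and 1978 and 1784 on day 3 (2.60 ± 0.25, adjusted p = 4.0e-08), and Mest, an imprinted gene of the embryo, read 951 and 910 on day 0 and 4495 and 4028 on day 3 (2.16 ± 0.25, adjusted p = 4.5e-07). Vegfa, which drives vessel growth, read 950 and 1057 on day 0 and 199 and 209 on day 3 (-2.13 ± 0.45, adjusted p = 6.7e-04), and the receptor Lifr fell (-1.91 ± 0.40) while Osmr rose (1.87 ± 0.19). Vegfa was lower on both day 3 arrays, and Igfbp7 (0.33 ± 0.26, adjusted p = 0.37) and Igfbp5 (-0.30 ± 0.25, adjusted p = 0.39), which bind insulin-like growth factors, did not pass.

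In heme, iron and oxidative stress, 11 of 25 rose, 5 fell and 9 did not pass (median 0.24). Hmox1, which degrades the heme released from myoglobin and red cells, read 84.6 and 161 on day 0 and 1368 and 1493 on day 3 (3.29 ± 0.29, adjusted p = 1.4e-08), and Mt2, a metal-binding protein, rose (2.20 ± 0.25). Tfrc, the transferrin receptor, fell (-1.66 ± 0.21), and Fth1, the ferritin heavy chain that stores iron, did not pass (-0.44 ± 0.19, adjusted p = 0.090). In cholesterol handling, where 9 of 22 rose, 1 fell and 12 did not pass (median 0.42), the largest rises were in Apoe, which carries lipid (986 and 1309 on day 0 and 7465 and 10911 on day 3, change 2.95 ± 0.26, adjusted p = 1.4e-08), and in the exporters Abca1 (1.78 ± 0.24) and Abcg1 (1.41 ± 0.24). Among caspases and the Bcl2 family, 9 of 25 rose, 1 fell and 15 did not pass (median 0.44, or 0.32 with bounds), and they included Ripk3 (1.99 ± 0.39) and Casp8 (1.67 ± 0.23). Fth1 passed with the mean of all probe sets (-0.43, adjusted p = 0.022) and without the emerin KO arrays (-0.44, adjusted p = 0.038). Pmaip1, which encodes the cell death protein Noxa, read 2.30 and 3.66 on day 0 and 350 and 476 on day 3 (at least 4.13-fold higher, adjusted p = 1.5e-09).

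The next lists supply growing cells, and their counts stand against 20.1% that rose and 14.2% that fell over all genes. In nucleotide synthesis and the pentose phosphate route, 10 of 26 rose, 3 fell and 13 did not pass (median 0.34), led by Rrm2, which makes DNA precursors (238 and 309 on day 0 and 2242 and 2246 on day 3, change 2.91 ± 0.18, adjusted p = 7.7e-11), Tk1 (at least 5.37-fold) and Pgd (2.17 ± 0.25). In ribosome assembly, 14 of 38 rose, 2 fell and 22 did not pass (median 0.42), with Myc (1.69 ± 0.28), Fbl (1.61 ± 0.18) and Npm1 (1.15 ± 0.15) among the rises. Of 18 tRNA synthetases, 5 rose, 1 fell and 12 did not pass (median 0.21), a share of rises near that of all genes. Of 34 chaperones, 11 rose, 9 fell and 14 did not pass (median 0.17). Of the chaperones, Hsp90aa1 (1.68 ± 0.21) and Dnaja1 (1.28 ± 0.21) rose, and Hspb7 (-1.74 ± 0.28), Cryab (-1.47 ± 0.16), Dnajb5 (-2.26 ± 0.29) and Smyd1, which helps myosin fold (-1.82 ± 0.31), fell.

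Markers of other cells gave the following counts. All 17 fiber markers fell (median -1.69), and their summed signal was 403137 and 391307 on day 0 and 103266 and 149991 on day 3. On day 3, 14 of the 17 were lower on replicate 1 than on replicate 2, against 4 of 17 on day 0. Of the 8 tested neutrophil markers, 3 rose. S100a8 read 15.1 and 72.9 on day 0 and 1674 and 1522 on day 3 (at least 16-fold higher, adjusted p = 5.4e-07), S100a9 read 105 and 94.1 on day 0 and 775 and 1103 on day 3 (2.86 ± 0.55, adjusted p = 2.6e-04), and Csf3r rose (at least 5.27-fold). The granule genes Mmp8 (0.47 ± 0.29, adjusted p = 0.24), Ltf (-0.13 ± 0.38, adjusted p = 0.85) and Elane (-0.22 ± 0.43, adjusted p = 0.76) did not pass, and Cxcr2 stayed under the signal of 100 on all 4 arrays. On day 4 S100a8 read 341 and 450. Of 8 tested markers of T and NK cells 1 rose, Thy1 (0.73 ± 0.21), which fibroblasts also express, while Cd3d (-0.07 ± 0.75, adjusted p = 0.96) and Cd3g (0.03 ± 0.47, adjusted p = 0.97) did not pass and Cd4 stayed under 100. Of 7 B cell markers, 0 passed. Under other settings the adjusted p in brackets missed the threshold: with median scaling for Thy1 (0.099), without control day 0 replicate 1 for Thy1 (0.096), without control day 3 replicate 2 for Thy1 (0.068).

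None of the 11 endothelial markers passed, with a median of -0.31 and a summed signal of 5420 and 5083 on day 0 and 4642 and 4410 on day 3. Pecam1 read 802 and 622 on day 0 and 661 and 660 on day 3, with a 95% interval of the change from -0.44 to 0.26, and Cdh5 read 720 and 571 on day 0 and 588 and 598 on day 3, with an interval from -0.47 to 0.25. Of 8 fibroblast markers, 2 rose (Mfap5, 1.09 ± 0.18, and Pdgfra, 0.68 ± 0.21) and 1 fell (Pi16, -1.60 ± 0.38), which is near the 20.1% and 14.2% over all genes. Of 9 markers of smooth muscle and pericytes, 4 rose and 3 fell, including Acta2 (0.97 ± 0.25) and the pericyte gene Rgs5 (-1.22 ± 0.19). Most of these counted calls were lost under some settings. Among the losses were Pdgfrb (0.17), Tagln (0.14) and Cspg4 (0.091) with median scaling and Myh11 with the mean of all probe sets (0.32), adjusted p in brackets. Another of the falls was Des, also a gene of fibers. Tendon markers gave 1 rise and 3 falls among 6, with Chad (-3.05 ± 0.72) the largest. Calls in these counts were lost under some settings, such as the rise of Thbs4 with median scaling (adjusted p = 0.15). The fall of Tnmd was lost with quantile normalization (adjusted p = 0.083), among others. Of 4 Schwann cell markers 2 fell, Pmp22 (-1.23 ± 0.28) and Mbp (-2.27 ± 0.70). Of 6 adipocyte markers Fabp4 alone passed (-0.79 ± 0.16), Mcpt4 alone fell of 6 mast cell markers (at least 1.64-fold), and 0 of 6 epidermis markers and 0 of 2 erythroid markers passed. The part of changing cell numbers in the results above was not tested. Some calls were lost, with the adjusted p in brackets: with the mean of all probe sets for Fabp4 (0.13), Mbp (0.078), Pdgfra (0.15) and Pi16 (0.068), with median scaling for Acta2 (0.057) and Pdgfra (0.096), with pseudocount 1 for Mcpt4 (0.082), with the replicate block for Mcpt4 (0.051), without control day 0 replicate 1 for Mbp (0.074), Mcpt4 (0.27) and Pdgfra (0.053), without control day 0 replicate 2 for Mbp (0.051) and Pdgfra (0.064), without control day 3 replicate 1 for Mcpt4 (0.11) and Pdgfra (0.072), without control day 3 replicate 2 for Mbp (0.12) and Mcpt4 (0.15).

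**Figure D4:**
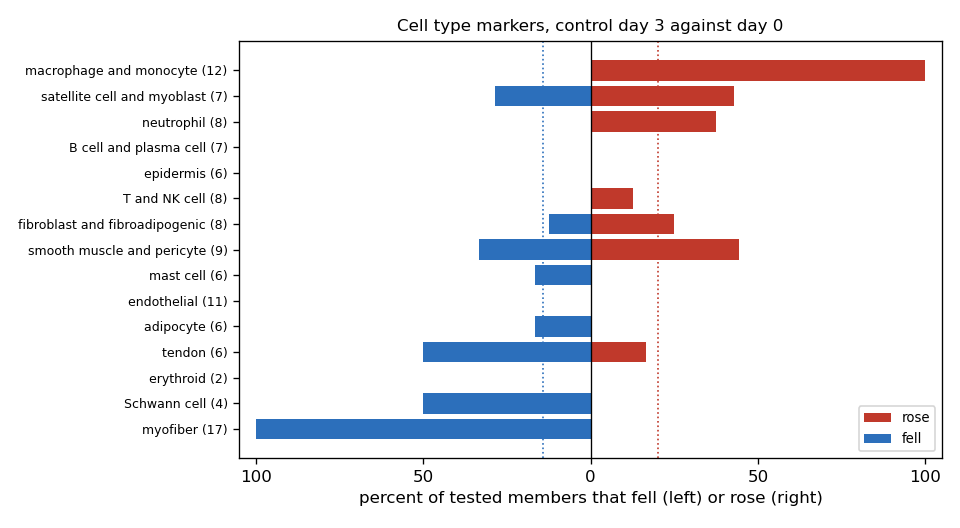
Percent of tested markers of 15 cell types that fell (left, blue) or rose (right, red) from control day 0 to day 3, with the number tested in brackets; dotted lines mark the shares over all genes. All 17 fiber markers fell, all 12 macrophage markers rose and 0 of 11 endothelial markers passed.

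For 451 genes (4.04%), the 95% interval of the change lay inside -0.5 to 0.5, which bounds the change where a missed threshold does not. Of the 10 brightest of them, 7 encode proteins of the cytosolic ribosome, and Rps14 read 11978 and 11167 on day 0 and 11520 and 11198 on day 3, with an interval from -0.36 to 0.31. Rps28 (interval -0.30 to 0.38), Rps24 (-0.34 to 0.31), Rps10 (-0.27 to 0.37), Rpl4 (-0.30 to 0.40), Rps4x (-0.06 to 0.49) and Rplp0 (-0.50 to 0.26) were the others. The remaining 3 were Col3a1 (-0.39 to 0.39), the kinase Nme2 (-0.43 to 0.21) and the membrane protein Itm2b (-0.32 to 0.27). The ribosomal genes overlapped between the days or differed by a small part of their signal. Rps10 passed with the mean of all probe sets (0.64, adjusted p = 0.0024). Rps28 passed with quantile normalization (0.43, adjusted p = 0.0021). Rps4x passed with quantile normalization (0.53, adjusted p = 0.0015).

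Several further genes of the leading falls belong to none of the groups above. Mlf1 (-4.03 ± 0.35), Art3 (-3.52 ± 0.26), Apobec2, a muscle member of the cytidine deaminase family (-3.32 ± 0.27), and Ppp1r1a, a phosphatase inhibitor (at least 9.03-fold), fell. Aldh1a1, which makes retinoic acid, read 1904 and 1610 on day 0 and 83.0 and 175 on day 3 (-3.53 ± 0.30, adjusted p = 7.5e-09), and the ferritin receptor Scara5 (-3.45 ± 0.44) and the transporter Slc47a1 (-3.57 ± 0.38) fell with it.

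A gene was read from its brightest probe set. At least 1 other bright set moved the other way for Asph, Atp2a2, Cox8a, Erbb3, Fabp4, Itm2b, Lamp2, Lmna, Map1lc3b, Mapk14, Mbp, Myof, Rps14, Rps24, Scara5, Smyd1, Tpm1 and Utrn. The set used can take signal from related transcripts for Acta2, Bgn, Casq2, Clec4d, Clec4n, Clu, Cotl1, Cox8a, Dlat, Dnajb5, Fbl, Fth1, Gabarapl1, Hadh, Igfbp5, Incenp, Itga5, Kcnc4, Lamp2, Laptm5, Lipa, Ms4a6d, Myh1, Myl3, Myof, Pgd, Phkg1, Psme4, Rps14, Rps24, Rps28, Rrm2, S100a8, Slc25a4, Slc25a5, Tmsb10, Tnnt2, Trem2, Tuba1a and Tubb2a, so that their values are less certain.

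Day 4 control muscle, 1 day later, differed from day 3 in 5 genes (0.0448% of the genes tested), all higher on day 4, while 531 had an unadjusted p under 0.05 in limma. Where no gene differs, a share of 0.05 of the genes tested is expected under that cut, here and below. The 531 lie below that share of 11164. Atp1b4, a relative of the sodium pump subunits found in muscle nuclei, read 253 and 333 on day 0 and 141 and 113 on day 3 and 1490 and 1172 on day 4 (day 4 minus day 3: 3.10 ± 0.35, adjusted p = 1.5e-04). Myh8 read 3891 and 5109 on day 4 (1.32 ± 0.22, adjusted p = 0.031) and Myh7 read 1066 and 617 (1.57 ± 0.27, adjusted p = 0.032). Myh8 was thus higher on each later day, whereas Myh7 was still far below day 0. The others were Islr (0.96 ± 0.17, adjusted p = 0.032) and Rflnb (0.90 ± 0.16, adjusted p = 0.035). Without control day 3 replicate 1, only Atp1b4 passed of these 5, and the adjusted p was 0.28 for Myh7, Myh8 and Rflnb and 0.42 for Islr. Without control day 3 replicate 2 it was 0.082 for Myh7, 0.072 for Myh8 and Islr and 0.14 for Rflnb. Without control day 0 replicate 1 or 2, it was 0.055 for Rflnb. Myh7, Myh8, Islr and Rflnb also missed the threshold with median scaling, with no intensity trend and with only the 6 control arrays. The fall of Islr from day 0 to day 3 (-0.61 ± 0.17) was lost without control day 0 replicate 2 (adjusted p = 0.083) and without control day 3 replicate 1 (adjusted p = 0.056). The fall of Atp1b4 from day 0 to day 3 (-1.03 ± 0.35) was lost without control day 0 replicate 2 (adjusted p = 0.16), without control day 3 replicate 1 (adjusted p = 0.054) and without control day 3 replicate 2 (adjusted p = 0.14).

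The day 3 change in control was set against that in lamin A/C KO muscle (3 arrays each day) and in emerin KO muscle (2 arrays on day 0 and 3 on day 3). For lamin A/C KO the day 0 labels read 0d post-injection rather than uninjected, and the 3 emerin KO day 3 arrays had Gapdh ratios from 3.62 to 6.09. The part of RNA quality in these differences was not tested. The same control arrays enter both comparisons. Their titles name them as controls of the lamin A line, and the series holds no control named for an emerin line. For emerin KO, the missing gene and the mouse line thus cannot be told apart. Lmna, the gene of lamin A/C, had means of 890 on day 0 and 3992 on day 3 in control and of 77.8 and 61.1 in lamin A/C KO, where it was dim on both days. The change in lamin A/C KO differed from that in control for 19 genes (0.17%), 1 more positive (0.00896%) and 18 more negative (0.161%), with 716 at an unadjusted p under 0.05. All 15 of them that rose in control rose less, or moved the other way, in lamin A/C KO. Here and for emerin KO below, the control change enters both the choice of such genes and, subtracted, the difference. Their direction is thus in part built in. In emerin KO, 295 genes differed (2.64%), 159 more positive (1.42%) and 136 more negative (1.22%), with 1934 at an unadjusted p under 0.05. Of these, 135 rose in control, and 40 of the 135 rose less or moved the other way in emerin KO. Sln, named above among the genes that rose, went from a mean of 689 to 3118 in control, from 6489 to 1950 in lamin A/C KO and from 478 to 231 in emerin KO. Its change was 2.12 in control, -1.70 in lamin A/C KO and -0.93 in emerin KO (-3.82 ± 0.30, adjusted p = 3.3e-07, and -3.05 ± 0.32, adjusted p = 3.0e-05, KO change minus control change). The perinatal Myh8 went from 203 to 1770 in control and from 648 to 1132 in lamin A/C KO (-2.16 ± 0.28, adjusted p = 4.6e-04). For Myog the means went from 556 to 3951 in control and from 245 to 8675 in emerin KO (2.19 ± 0.27, adjusted p = 2.8e-04). So of these 3 genes Sln and Myh8 started higher in lamin A/C KO and Myog lower in emerin KO. Of the genes flagged below for lamin A/C KO, all but Lmna had a higher day 0 mean there than in control. Ankrd1 went from 289 to 1656 in control and from 1577 to 1623 in lamin A/C KO. Tnnt2 went from 183 to 5639 in control and from 544 to 4989 in lamin A/C KO. On day 3, S100a4 was higher in lamin A/C KO (7011 against 4921 in control), and the other flagged genes were lower.

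**Figure D5:**
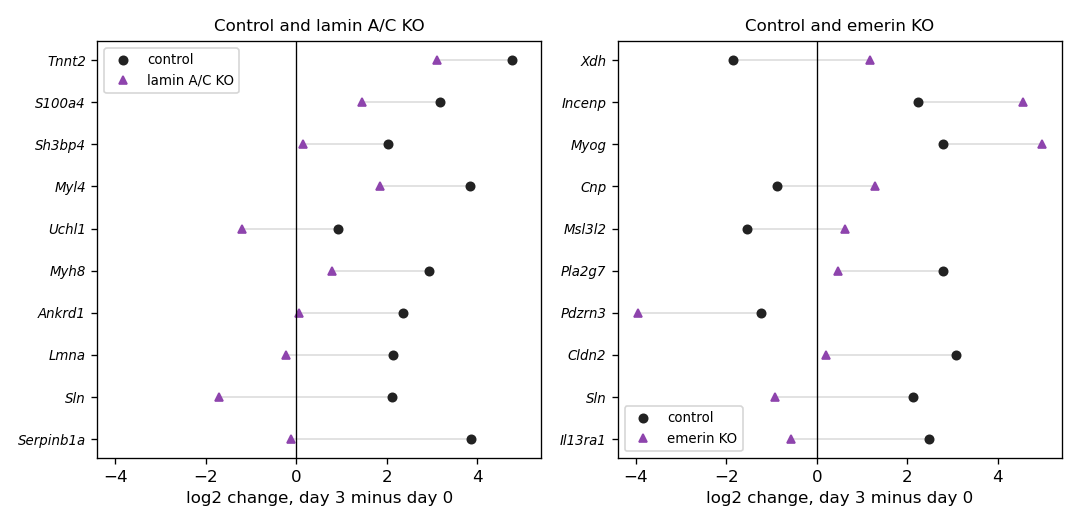
Log2 change from day 0 to day 3 in control (circles) and in the knockout (triangles) for the 10 genes with the largest difference between them among those that also passed in control, lamin A/C KO on the left and emerin KO on the right. The control change enters both this choice and the difference. Each lamin A/C KO triangle lies to the left of its circle, and the fitted changes of Serpinb1a, Lmna, Sh3bp4, Il13ra1, Cldn2, Incenp and Msl3l2 depend on the added 32, because at least 1 of their group means is under 100.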

How the data were processed

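Expression was measured on 23 Affymetrix arrays of mouse gastrocnemius. The deposited values are a linear signal intensity per probe set made by the authors with MAS5 (version not given in the sources used here), per the submitters' processing notes, and the trimmed mean of each array is 150.04 to 150.06. Multiplying brought that mean to 500 on each array, and values were taken as log2(signal + 32). Of 22690 probe sets, 20380 name 1 gene in GEO's platform annotation, 691 name several, 1555 name none and 64 are controls. The brightest set by mean signal stood for each of 12393 genes, and 11164 genes that reached a signal of 100 on 2 or more of the arrays were tested. limma (version 3.58.1, R 4.3.3) was fitted to all 9 groups (14 residual degrees of freedom, eBayes with an intensity trend) with Benjamini-Hochberg adjustment and a threshold of 0.05. No 2 arrays held identical values. On simulated data for control day 3 against day 0 over 11164 genes, 42% of 100 genes planted at 2-fold and 86% of 100 at 4-fold were recovered, with 3 false calls. Only the planted genes changed there, whereas 34.3% of genes passed in the data. The adjustment depends on that share, so these rates need not hold for the data.

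The comparison, the lists and the pairs were chosen with earlier results of these data known. Of 1050 symbols in the lists and pairs, 931 matched. Named genes are called genes ranked 1 to 25 by rise and 1 to 25 by fall, of those whose arrays do not overlap, up to 6 called members of each list with the largest change and up to 2 others of highest signal, all pairs, the defining markers, the 10 brightest steady genes, and up to 10 genes per other comparison. Unnamed cDNAs and gene models were left out of the rankings. Genes outside this rule, such as all members of a direction that held 5 or fewer, and those with a printed promoter, were chosen after their values were seen. The number of arrays, 2 per group, limits the precision. Alternatives covered scaling, pseudocount, filter, probe set choice, intensity trend, replicate block, arrays in the fit and leaving out each array. Replicate numbers were not taken to pair the arrays.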

Additional observations from a re-analysis of the deposited data

Results flagged for a closer look

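The day 3 change differed between control and lamin A/C KO muscle by the interaction term of the fit (limma, Benjamini-Hochberg adjusted over all genes) for the genes below, given as the lamin A/C KO change minus the control change in log2(signal + 32), with the adjusted p in brackets where another setting lost the call. Both knockouts were set against the same control arrays. All genes below but Lmna had a higher day 0 mean in lamin A/C KO than in control. A smaller change thus need not mean a lower day 3 level. Serpinb1a changed by 3.86 in control and -0.11 in lamin A/C KO, a difference of -3.98 ± 0.37 (adjusted p = 3.0e-06). Serpinb1a had a mean signal under 100 on control day 0 (15.2), so these values depend on the added 32 and are not exact, and in control it was at least 6.52-fold higher on day 3. Sln changed by 2.12 in control and -1.70 in lamin A/C KO, a difference of -3.82 ± 0.30 (adjusted p = 3.3e-07). Lmna changed by 2.13 in control and -0.22 in lamin A/C KO, a difference of -2.34 ± 0.28 (adjusted p = 1.5e-04). Lmna had a mean signal under 100 on lamin A/C KO day 0 (77.8) and lamin A/C KO day 3 (61.1), so these values depend on the added 32 and are not exact. For Lmna this call was lost with the mean of all probe sets (0.99) and with the brightest probe set by mean log2 (0.22). Ankrd1 changed by 2.35 in control and 0.05 in lamin A/C KO, a difference of -2.31 ± 0.36 (adjusted p = 0.0045). For Ankrd1 this call was lost on leaving out replicate 2 of control day 3 (0.088). Myh8 changed by 2.94 in control and 0.78 in lamin A/C KO, a difference of -2.16 ± 0.28 (adjusted p = 4.6e-04). Uchl1 changed by 0.93 in control and -1.21 in lamin A/C KO, a difference of -2.14 ± 0.38 (adjusted p = 0.015). For Uchl1 this call was lost with median scaling (0.065), on leaving out replicate 1 of control day 0 (0.12) and on leaving out replicate 2 of control day 3 (0.14). The control change of Uchl1 itself lost its call on leaving out replicate 1 of control day 0 (0.13) and on leaving out replicate 2 of control day 3 (0.10). Myl4 changed by 3.83 in control and 1.84 in lamin A/C KO, a difference of -1.98 ± 0.29 (adjusted p = 0.0021). For Myl4 this call was lost with the mean of all probe sets (0.70). Sh3bp4 changed by 2.03 in control and 0.15 in lamin A/C KO, a difference of -1.89 ± 0.32 (adjusted p = 0.012). Sh3bp4 had a mean signal under 100 on control day 0 (29), so these values depend on the added 32 and are not exact, and in control it was at least 2.14-fold higher on day 3. For Sh3bp4 this call was lost on leaving out replicate 2 of control day 0 (0.088) and on leaving out replicate 2 of control day 3 (0.14). S100a4 changed by 3.18 in control and 1.44 in lamin A/C KO, a difference of -1.74 ± 0.32 (adjusted p = 0.020). For S100a4 this call was lost with median scaling (0.31), with no intensity trend (0.073), on leaving out replicate 1 of control day 0 (0.17), on leaving out replicate 1 of control day 3 (0.10) and on leaving out replicate 2 of control day 3 (0.11). Tnnt2 changed by 4.76 in control and 3.10 in lamin A/C KO, a difference of -1.66 ± 0.30 (adjusted p = 0.015). For Tnnt2 this call was lost with median scaling (0.14), with no intensity trend (0.061), on leaving out replicate 1 of control day 0 (0.16), on leaving out replicate 1 of control day 3 (0.085) and on leaving out replicate 2 of control day 3 (0.088).

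The day 3 change differed between control and emerin KO muscle by the interaction term of the fit (limma, Benjamini-Hochberg adjusted over all genes) for the genes below, given as the emerin KO change minus the control change in log2(signal + 32), with the adjusted p in brackets where another setting lost the call. The emerin KO day 3 arrays had Gapdh 3'/5' ratios of 3.62 to 6.09, whose part in these differences was not tested. The controls are named for the lamin A line, so the missing gene and the mouse line cannot be told apart here. Il13ra1 changed by 2.48 in control and -0.58 in emerin KO, a difference of -3.06 ± 0.78 (adjusted p = 0.040). Il13ra1 had a mean signal under 100 on control day 0 (94.7), emerin KO day 0 (96.2) and emerin KO day 3 (50.6), so these values depend on the added 32 and are not exact. For Il13ra1 this call was lost with median scaling (0.058), with pseudocount 1 (0.061), with no filter (0.052), with no intensity trend (0.073), on leaving out replicate 1 of control day 0 (0.16), on leaving out replicate 2 of control day 0 (0.070), on leaving out replicate 1 of control day 3 (0.099), on leaving out replicate 2 of control day 3 (0.13) and with the brightest probe set by mean log2 (0.12). Sln changed by 2.12 in control and -0.93 in emerin KO, a difference of -3.05 ± 0.32 (adjusted p = 3.0e-05). Xdh changed by -1.86 in control and 1.18 in emerin KO, a difference of 3.04 ± 0.32 (adjusted p = 3.0e-05). Cldn2 changed by 3.07 in control and 0.19 in emerin KO, a difference of -2.87 ± 0.39 (adjusted p = 7.5e-04). Cldn2 had a mean signal under 100 on control day 0 (24.8), emerin KO day 0 (75.1) and emerin KO day 3 (96.1), so these values depend on the added 32 and are not exact, and in control it was at least 4.44-fold higher on day 3. Pdzrn3 changed by -1.23 in control and -3.95 in emerin KO, a difference of -2.71 ± 0.42 (adjusted p = 0.0016). Pla2g7 changed by 2.78 in control and 0.46 in emerin KO, a difference of -2.32 ± 0.35 (adjusted p = 0.0016). Incenp changed by 2.24 in control and 4.56 in emerin KO, a difference of 2.32 ± 0.53 (adjusted p = 0.023). Incenp had a mean signal under 100 on emerin KO day 0 (68), so these values depend on the added 32 and are not exact. For Incenp this call was lost with the mean of all probe sets (0.64), on leaving out replicate 1 of control day 0 (0.076), on leaving out replicate 2 of control day 0 (0.069), on leaving out replicate 1 of control day 3 (0.051) and on leaving out replicate 2 of control day 3 (0.11). Myog changed by 2.78 in control and 4.97 in emerin KO, a difference of 2.19 ± 0.27 (adjusted p = 2.8e-04). Cnp changed by -0.89 in control and 1.28 in emerin KO, a difference of 2.17 ± 0.35 (adjusted p = 0.0022). The control change of Cnp itself lost its call with the mean of all probe sets (0.056), on leaving out replicate 2 of control day 0 (0.10) and on leaving out replicate 2 of control day 3 (0.055). Msl3l2 changed by -1.54 in control and 0.61 in emerin KO, a difference of 2.15 ± 0.55 (adjusted p = 0.040). Msl3l2 had a mean signal under 100 on control day 3 (66.8), emerin KO day 0 (43) and emerin KO day 3 (87.7), so these values depend on the added 32 and are not exact, and in control it was at least 2.6-fold lower on day 3. For Msl3l2 this call was lost with no intensity trend (0.050), on leaving out replicate 1 of control day 0 (0.068), on leaving out replicate 2 of control day 0 (0.15), on leaving out replicate 1 of control day 3 (0.096) and on leaving out replicate 2 of control day 3 (0.13). The control change of Msl3l2 itself lost its call on leaving out replicate 2 of control day 0 (0.064).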

How the results depend on the processing

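Control day 3 against day 0 kept its counts within 1.5 times under every alternative run, with 1724 to 1909 rises and 1218 to 1300 falls when 1 array was left out. The share of calls that rose was 58.7%, against 53.6% with quantile normalization and 50.3% with median scaling, which shifted the median of all genes by -0.11. Pairs with the muscle-rich gene down and its relative up numbered 21 to 26. With the replicate number as a block there were 2278 rises, 1595 falls and 26 pairs. That block gave 5 genes up and 0 down for day 4 against day 3, 1 and 17 for lamin A/C KO, 138 and 112 for emerin KO, and 465 steady genes. The correlation of the differences between replicates 1 and 2 of day 0 and of day 3 was 0.02 over genes. This 1 value cannot settle whether the numbers pair the arrays, since pairing that touches few genes could also give it. Choosing the brightest set by mean log2 was run first, and the choice in use was taken after its counts (2234 rises, 1570 falls) had been seen.

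The smaller counts moved. For day 4 against day 3, median scaling left 1 gene up, no intensity trend 1, only the 6 control arrays 3 and leaving out 1 array 1 to 10, and 1 gene was down without the emerin KO arrays. For lamin A/C KO, 2 genes were more positive with a pseudocount of 100, with no filter and with the filter on 4 arrays, 0 with no intensity trend and without the emerin KO arrays, and 0 to 2 leaving out 1 array. The more negative genes numbered 7 with median scaling, 9 with no intensity trend and 5 to 15 leaving out 1 array. For emerin KO, 239 were more positive with quantile normalization, 95 with no intensity trend and 37 to 72 leaving out 1 array, and 30 were more negative with median scaling, 74 with no intensity trend and 20 to 71 leaving out 1 array. Steady genes numbered 244 with median scaling, 986 with a pseudocount of 100, 682 with the mean of all probe sets and 110 to 138 leaving out 1 array. The cause of these moves was not tested. Of 1428 list counts under alternatives, 1317 lay within 1.5 times. Of the genes named with their change that passed, 231 did so under every alternative run, and the losses of the others are given beside their values. Pdgfrb, Tagln, Cspg4, Myh11, Thbs4 and Tnmd, named without their change, also lost their calls. For them only some of the settings are given. Dim signals, under 100, limit the falls and rises of dim genes to bounds.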
